A study of Mus musculus with 16 samples.

Results

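Endothelial cells (EC) form the inner lining of blood vessels, and those of mouse lung were searched here for cells with genes of systemic-type capillaries. The cells described here were chosen by their counts of 5 genes, and had at least 1 unique molecular identifier (UMI, 1 counted transcript molecule) in at least 2 of Fabp4, C1qtnf9, Igfbp3, Meox2 and Tcf15, with the cells of all days pooled. This gate took 76 of 9036 cells (0.841%, Clopper-Pearson 95% interval 0.663 to 1.05). The 8960 cells outside the gate are called the other cells. Because the 5 genes chose the cells, their levels are given as a description and were kept out of every test.

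Most blood vessels of the body, such as those of heart, skeletal muscle and fat, belong to the systemic circulation, whereas the gas-exchanging capillaries of the lung are fed by the pulmonary artery. Capillary EC of heart, muscle and fat take up fatty acids, and Fabp4 codes for a fatty acid binding protein found there, while Meox2 and Tcf15 code for transcription factors that act together in heart and muscle EC to support that uptake. C1qtnf9 codes for a secreted protein of the complement C1q and tumour necrosis factor family, and Igfbp3 for a secreted protein that binds insulin-like growth factors. The lung also has systemic vessels, the bronchial ones, which run along the airways.

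The study followed lung EC of female C57BL/6N mice through a tumour and its removal. The mice were wild-type at d0, carried a primary tumour at d15, had had the tumour resected by d22 and carried metastases at d36, the tumour being Lewis lung carcinoma, a mouse lung tumour line placed under the skin. EC were sorted by fluorescence and their 3′ transcript ends were counted with 10x Genomics version 2 chemistry. The labels list 16 samples, 4 libraries a day, but the cell names carry the day only, so the cells of a day form 1 pooled sample, days were set side by side with no test, and how many mice stand behind a day is not given in the sources used here.

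The gate took 17 of 2671 cells (d0), 15 of 1507 (d15), 29 of 3230 (d22) and 15 of 1628 (d36). As shares these were 0.636% (0.371 to 1.02), 0.995% (0.558 to 1.64), 0.898% (0.602 to 1.29) and 0.921% (0.517 to 1.52), and all 4 intervals overlap. Gated cells were deeper than the other cells at every day. Their median was 12956 UMIs (d0), 5871 (d15), 11185 (d22) and 4591 (d36), while the other cells had medians of 7635.5, 4132, 7651 and 3364 UMIs at the same days. A deeper cell has more chances to show a UMI of a gate gene, and what depth contributes to the shares was not tested beyond the thinning given below. Of the barcodes, 36 occurred at more than 1 day, and no gated cell had one of them.

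Fabp4 was the common member of the gate. It was detected in 65 of the 76 gated cells, Igfbp3 in 45, C1qtnf9 in 28, Meox2 in 27 and Tcf15 in 18. The most frequent pair was Fabp4 with Igfbp3 and nothing else, in 24 cells, followed by Fabp4 with C1qtnf9 in 7 and by the trio Fabp4, C1qtnf9 and Meox2 in another 7. Exactly 2 gate genes were found in 51 cells, 3 in 20, 4 in 4 and all 5 in 1 cell, while 809 cells lay just outside the gate with 1 gene. Over all cells, Fabp4 was seen in 37.7% of the 53 cells with Meox2 and in 5.48% of the 8983 cells without it. It was seen in 26.9% of the 93 cells with C1qtnf9 and in 5.45% of those without, and in 13.2% of the 265 cells with Igfbp3 and in 5.44% of those without. These shares describe how the genes fell together and were not corrected for depth.

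The UMIs of the gate genes were unevenly spread over days and cells. Levels are given as CPM, the UMIs of a gene for every 1000000 UMIs of the pooled cells or of the cell. Fabp4 stood at 2692 CPM in gated cells (d0), 10611 (d15), 3037 (d22) and 4231 (d36), and 1 cell at d0 held 493 of the 576 Fabp4 UMIs of that day. At d15, 14 of 15 gated cells had at least 2 gate genes with 3 or more UMIs each, and at d36 13 of 15 did. At d0 the count was 8 of 17 and at d22 11 of 29. In 13 of the 29 gated cells of d22, every gate gene present had only 1 or 2 UMIs. The value steps of the table bear on this limit, because 4 was the most frequent value above 0 in every day's cells (45.1 to 54.8% of such values), while 1 made up at most 14.5%. The origin of these steps was not tested, and intervals that take each UMI as independent are too narrow for such values.

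The label of the cells was checked against markers of other cell types. Of the 76 gated cells, 8 took at least 2% of their UMIs from markers of non-endothelial types, 4 at d0, 2 at d22, 2 at d36 and none at d15, and in all 8 the fibroblast markers led. Those 8 cells had 20000 to 54573 CPM from 8 fibroblast markers and 540 to 1724 from 14 pan-endothelial markers such as Pecam1 and Cdh5. The remaining 68 had 0 to 450 CPM from the fibroblast markers and 3137 to 28643 from the endothelial ones, with a median of 13368. The other cells had a median of 16114 for the endothelial markers. The 8 and the 68 cells do not overlap on the endothelial list, which the 2% limit did not use. Their separation on the fibroblast list follows largely from that limit, since it counts the fibroblast markers. The highest share of non-endothelial markers among the 68 was 0.967%, and the lowest among the 8 was 2.17%.

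Fibroblast-led cells carried some of the gate genes. The pair Igfbp3 with Meox2 and nothing else occurred in 5 gated cells, and none of these was among the 68. Among all 9036 cells, 30 were led by fibroblast markers, of which 21 had at least 1 gate gene, 17 Igfbp3 and 11 Meox2. In 33 cells led by epithelial, blood or mural markers, 3 had a gate gene (9.09%, median depth 4782 UMIs) and none passed the gate. Among the 8954 cells kept, 9.62% had a gate gene at a median depth of 6391.5 UMIs. The share of cells with at least 1 gate gene was thus near that in the epithelial, blood and mural cells and below the 70.0% of the fibroblast-led cells, and free RNA as a source of single gate genes was not tested. Below, the 68 cells are the gated cells unless the 76 are named, and 74 of the other cells were left out by the same limit or by having under 300 genes.

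**Figure D1:**
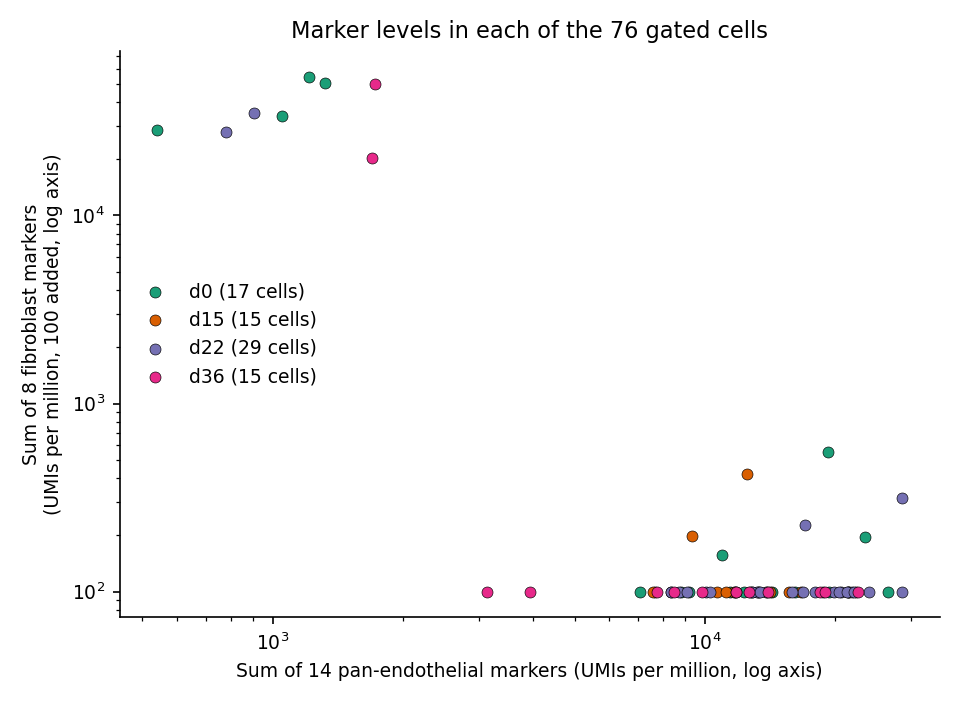
Each point is 1 of the 76 gated cells, coloured by day, with the summed level of 14 pan-endothelial markers on the x axis and of 8 fibroblast markers on the y axis (CPM, log axes). The 8 cells at the upper left have at least 20000 CPM of fibroblast markers, and the other 68 lie at 450 or below.

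With a stricter gate the days differed more than with the loose one. When each gate gene had to have at least 3 UMIs and the fibroblast-led cells were left out, 4 cells remained (d0), 14 (d15), 11 (d22) and 12 (d36). Their shares were 0.151% (0.0411 to 0.386) at d0, 0.937% (0.513 to 1.57) at d15, 0.342% (0.171 to 0.612) at d22, and d36 had 0.752% (0.389 to 1.31). The interval at d0 lies below those at d15 and d36, and the one at d22 overlaps all others. Thinning every cell to 1200 UMIs before the gate gave 3, 10, 9 and 10 cells, or 0.112%, 0.664%, 0.279% and 0.614%, and no cell of the table was shallower than that. The intervals cover counting error in 1 pooled sample a day and no spread between mice, and the cutoff of 3 UMIs was chosen after the values had been seen.

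**Figure D2:**
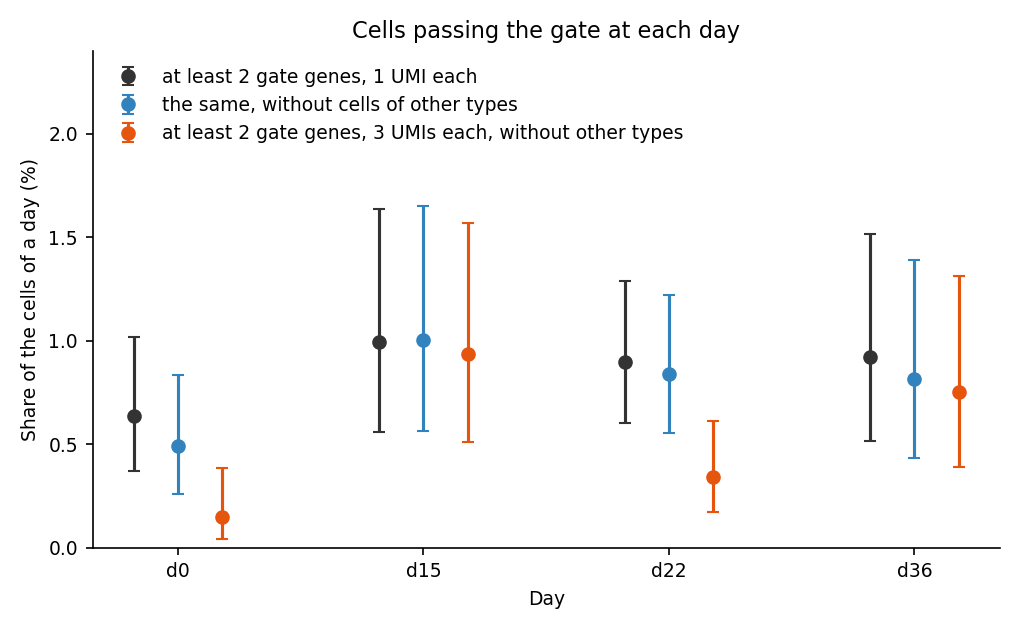
Points show the share of each day's cells that passed the gate (y axis, percent) at the 4 days (x axis), with exact 95% binomial intervals, for the gate at 1 UMI, the same without cells of other types, and the gate at 3 UMIs without them. At 3 UMIs the shares were 0.151% (d0), 0.937% (d15), 0.342% (d22) and 0.752% (d36).

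UMIs were then summed per day over gated and over other cells, and each gene was tested with edgeR's quasi-likelihood test with the day as a block, at a Benjamini-Hochberg adjusted p under 0.05. The 4 days are the replicates of this test. In the fit of the 76 cells, its estimate of the spread was pooled fully across genes (prior degrees of freedom Inf). A gene's own spread over days thus did not enter its p-value there, and the same setting was not recorded for the other fits. Each standard error (SE) below was derived from the fold change and the F statistic of the test. Over all 76 cells, 11128 genes were tested and 313 were called (2.81%), 123 higher (1.11%) and 190 lower (1.71%). Without cells of other types, 10914 genes were tested and 184 called (1.69%), 49 higher (0.449%) and 135 lower (1.24%). Of these, 48 higher and 129 lower genes were called in both fits. The median log2 fold change over all genes was −0.63 over the 76 cells and −0.71 over the 68, and −0.38 over the 76 when the sums were scaled by their totals only, where 167 genes were higher and 110 lower. Over the 68 cells, 27 genes were higher and 39 lower without d15, 30 and 123 without d22, and 29 and 41 without d36. In simulated data of the same size, 111 of 200 genes changed 4-fold were recovered (55.5%) with 4 false calls. The changed genes were drawn above a minimum mean count in the gated sums, and the counts followed the fit's own spread. Both raised and lowered genes were simulated. The check thus covers neither genes below that minimum count nor the value steps of the table. Fold changes and adjusted p-values given below are from the fit without cells of other types unless the 76 cells are named, and among the 61 genes named in the text and called in both fits they differed by at most 0.60 on the log2 scale.

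The genes most raised over the 76 cells were of more than 1 kind. Of the 16 with the largest called ratios on the same side at all 4 days, 9 were also called without the fibroblast-led cells. These were Lmo1, Ackr1, Mall, Apoe, Col15a1, Tmem255b, Bok, Fabp5 and Tshz2. Of them Ackr1, Apoe, Fabp5, Mall and Tshz2 were called in every alternative in which they were tested, while Lmo1 lost its call without d0 or d36 and Tmem255b without d22 or d36. Bok lost its call without d0, d22 or d36, and over the 68 cells without any 1 day. Among the other 7 were Gas7, Col3a1, Serping1, Efemp1, Naaa and Plxdc2, of which Plxdc2 was too low to be tested there. Col3a1, a fibrillar collagen of fibroblasts, fell out with a log2 fold change of 4.58 over the 76 cells and 0.72 over the 68. The same held for the fibroblast list. Over the 76 cells 5 of 7 tested genes were higher (Col1a2, Col3a1, Pdgfra, Tcf21 and Gsn), and over the 68 cells 0 of 3 were. These genes are among the markers by which cells were left out, so the loss of their calls follows from that choice. Mgp, a matrix protein of arteries and fibroblasts, was higher over the 76 cells (2.28) and stood at −1.35 over the 68, where its adjusted p was 0.145 by edgeR.

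Ackr1, an atypical chemokine receptor of venules that is on both the venous and the systemic vessel list, was higher in gated cells at every day. It stood at 51.0, 712, 399 and 1265 CPM in gated cells at d0, d15, d22 and d36, while the other cells had 4.94, 3.22, 4.44 and 3.14. Every day's gated value lay above all 4 values of the other cells. The log2 fold change was 6.47 ± 0.45 (SE; 4 days; edgeR quasi-likelihood adjusted p = 1.40e-43). These UMIs came from few cells, with 1 Ackr1 cell in the gate (d0), 1 (d15), 2 (d22) and 3 (d36). Among all cells 42 had Ackr1, and the 7 inside the gate held 330 of its 609 UMIs. Without all cells that have Ackr1, 22 genes were called higher and 77 lower, against 49 and 135 with them.

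Apoe, which codes for apolipoprotein E, a carrier of lipids, was spread over more cells. It was detected in 5 of 13, 10 of 15, 12 of 27 and 8 of 13 gated cells at d0, d15, d22 and d36. Its level in gated cells was 262, 2742, 754 and 1229 CPM, while the other cells had 64.5, 89.2, 61.2 and 60.7, and the groups did not overlap. The log2 fold change was 3.49 ± 0.31 (SE; edgeR adjusted p = 2.79e-25) and 4.10 over the 76 cells, the largest gap among the named genes called in both fits. Fabp5, a second fatty acid binding protein, stood at 128, 472, 257 and 706 CPM in gated cells and at 18.4, 13.3, 18.3 and 21.8 in other cells. Its groups did not overlap either, and its log2 fold change was 3.93 ± 0.42 (SE; edgeR adjusted p = 9.14e-18). Fabp5 was not part of the gate.

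A list of 14 genes of the systemic vessels around the airways held 13 tested genes, of which 6 were higher and none lower, with a median log2 fold change of 2.20 beside −0.71 for all genes. The 6 were Ackr1, Ebf1, Ebf3, Tshz2, Col15a1 and Vwa1, the same in the fit of the 76 cells. Ebf1, a transcription factor known from early B cells and from mesenchymal cells, stood at 166, 356, 208 and 426 CPM in gated cells at d0, d15, d22 and d36, and at 38.1, 25.6, 44.0 and 35.0 in other cells (log2 fold change 2.65 ± 0.42, SE; edgeR adjusted p = 1.42e-07). Tshz2, a zinc finger transcription factor, stood at 153, 294, 133 and 341 CPM in gated cells and at 8.55 to 15.1 in other cells (3.81 ± 0.50, SE; edgeR adjusted p = 2.97e-11). For both genes every gated value exceeded every value of the other cells. Col15a1, a collagen of the basement membrane zone, was carried by 10 gated cells with 42 UMIs in all, and its call was lost when any 1 day was left out. Ebf3 lost its call without d0 or without d36, and Vwa1, which codes for an extracellular matrix protein, without d15, d22 or d36. Plvap, the diaphragm protein of fenestrae and caveolae that is on the same list, was not called (log2 fold change −0.26). Summed over the list and over the 76 cells, the ratio of gated to other cells was 0.764 (d0), 1.64 (d15), 1.15 (d22) and 2.05 (d36). The sum was thus lower at d0 over the 76 cells, which include the 4 fibroblast-led cells of that day. The gated cells of d0 held 213981 UMIs with those cells and 156756 without them. Over all days, leaving out cells of other types took the list from 2961 to 3387 CPM in cells with 2 gate genes. The ratio by day was not worked out without them. Plvap weighs most in this sum, with 183633 UMIs over all cells beside 2674 for Ebf1.

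The heart and muscle capillary list gave a mixed picture. Of 18 tested genes 4 were higher, Rgcc, Timp4, Aqp7 and Kcna5, and 1 was lower, Lpl, with a median log2 fold change of 0.33, while scaling by totals only gave 7 higher and 1 lower over the 76 cells. Rgcc, a regulator of the cell cycle, stood at 166, 730, 378 and 547 CPM in gated cells at d0, d15, d22 and d36, while the other cells had 49.6, 49.3, 61.6 and 51.4 (2.65 ± 0.36, SE; edgeR adjusted p = 4.69e-10). Aqp7, a channel for water and glycerol, had no UMI in the 13 gated cells of d0 and stood at 142, 95.3 and 170 CPM at d15, d22 and d36. The other cells had 0.390, 1.02, 0.801 and 3.29 CPM of Aqp7 at the 4 days. Its log2 fold change was 5.69 ± 1.10 (SE; edgeR adjusted p = 7.05e-05), and its call was lost without d22. A count of 0 at d0 allows a level of up to 19.1 CPM (floor of 3 UMIs). Timp4, an inhibitor of matrix proteases, was called from 26 UMIs in 4 cells, and lost its call without d15, d22 or d36. Kcna5, a potassium channel, lost its call without d0.

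Other genes of fatty acid handling did not move that way. Lpl, which codes for lipoprotein lipase, was lower at every day, at 63.8, 89.0, 69.3 and 60.8 CPM in gated cells and at 207, 234, 180 and 241 in other cells (−1.85 ± 0.42, SE; edgeR adjusted p = 0.00182). Cd36, a fatty acid transporter, stood at 912, 1620, 1329 and 1764 CPM in gated cells and at 1423, 1992, 1566 and 2060 in other cells. Cd36 was called lower over the 76 cells (−0.77) but not over the 68 (−0.64, edgeR adjusted p = 0.229). Gpihbp1, which anchors lipoprotein lipase to capillaries, stood at 714, 1540, 1046 and 2348 CPM in gated cells and at 1294, 1849, 1494 and 1715 in other cells, so its groups overlapped and it was not called (−0.58, edgeR adjusted p = 0.323). Of 21 tested genes of fatty acid uptake and use, Fabp5 was the only higher one and Lpl the only lower one over the 68 cells. Meox1, the paralog of Meox2, was not called (0.36, edgeR adjusted p = 0.816) and neither was Aqp1 (0.30, adjusted p = 0.596).

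Most genes of a list for lung EC were lower. The list shares members with others, so the same call can be counted on more than 1 list. Cldn5 is also on the pan-endothelial list, Acvrl1 and Bmpr2 on the BMP list, and Sema3c and Tbx3 on the general capillary list. Of 18 tested genes of the lung endothelial list, 13 were lower and none higher over the 68 cells, with a median log2 fold change of −1.35, and 15 were lower over the 76 cells. DESeq2 on the same sums of the 76 cells called 2 of the 18 lower, Tmem100 and Sema3c, and none higher. Among the 13 Tmem100, a membrane protein induced by bone morphogenetic protein (BMP) signalling, stood at 2086, 151, 1618 and 742 CPM in gated cells at d0, d15, d22 and d36, and at 2519, 2958, 2723 and 2658 in other cells (−1.89 ± 0.26, SE; edgeR adjusted p = 3.02e-10). Hpgd, which breaks down prostaglandins, stood at 3139, 258, 3538 and 985 CPM in gated cells and at 3986, 3584, 4358 and 3826 in other cells (−1.77 ± 0.24, SE; edgeR adjusted p = 5.34e-10). Foxf1, a transcription factor of lung vessels, stood at 995, 116, 705 and 255 CPM in gated cells and at 854, 1561, 884 and 1613 in other cells (−1.73 ± 0.29, SE; edgeR adjusted p = 2.25e-06). The d15 and d36 values of gated cells were the low ones for all 3 genes, and at d0 Foxf1 was above its level in the other cells. The groups did not overlap for Tmem100 and Hpgd and overlapped for Foxf1. The Foxf1 call was lost without d15. Summed over the list and over the 76 cells, the ratio of gated to other cells was 0.616 (d0), 0.196 (d15), 0.742 (d22) and 0.329 (d36).

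Some genes of both kinds of alveolar capillary were lower. Of 14 tested genes of general capillaries, 7 were lower and none higher (median −1.37), and over the 76 cells edgeR called 9 lower and DESeq2 5. Cadm1, an adhesion molecule, stood at 76.6, 35.6, 101 and 48.7 CPM in gated cells and at 238, 314, 277 and 267 in other cells (−2.29 ± 0.41, SE), and Sema3c, a secreted guidance molecule, had a log2 fold change of −1.77 ± 0.29 (SE). Hilpda, a protein of lipid droplets, was lower by a similar amount (−2.03), as was Clec1a, a lectin receptor (−1.66), while Wfdc1 (−1.71) lost its call without d15. Of 11 tested genes of aerocytes, the thin capillary cells that face the air spaces, Car4, Fibin, Emp2 and Cyp4b1 were lower and none higher (median −1.40), and over the 76 cells DESeq2 called Cyp4b1 alone. Car4, carbonic anhydrase 4, stood at 1403, 223, 1600 and 182 CPM in gated cells and at 1700, 1357, 1809 and 1171 in other cells (−1.59 ± 0.27, SE; edgeR adjusted p = 2.79e-06). The Car4 groups overlapped. The calls of Car4 and Emp2 were lost without d36, and that of Fibin without d15 or d36.

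Most pan-endothelial markers were not called. Of 14 tested, Cldn5 and Icam2 were lower and none higher, with a median of −0.40, above the −0.71 of all genes. Cldn5, the tight junction claudin of EC, stood at 4147, 1059, 5124 and 1959 CPM in gated cells and at 4761, 5741, 5802 and 4739 in other cells (−1.28 ± 0.22, SE; edgeR adjusted p = 4.58e-06), and its call and that of Icam2 were lost without d15 or without d36. Another junction gene went the other way, since Jam2 stood at 287, 205, 196 and 791 CPM in gated cells and at 81.3, 87.0, 83.6 and 78.5 in other cells (1.62 ± 0.37, SE; edgeR adjusted p = 0.00165), a call lost without d36.

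**Figure D3:**
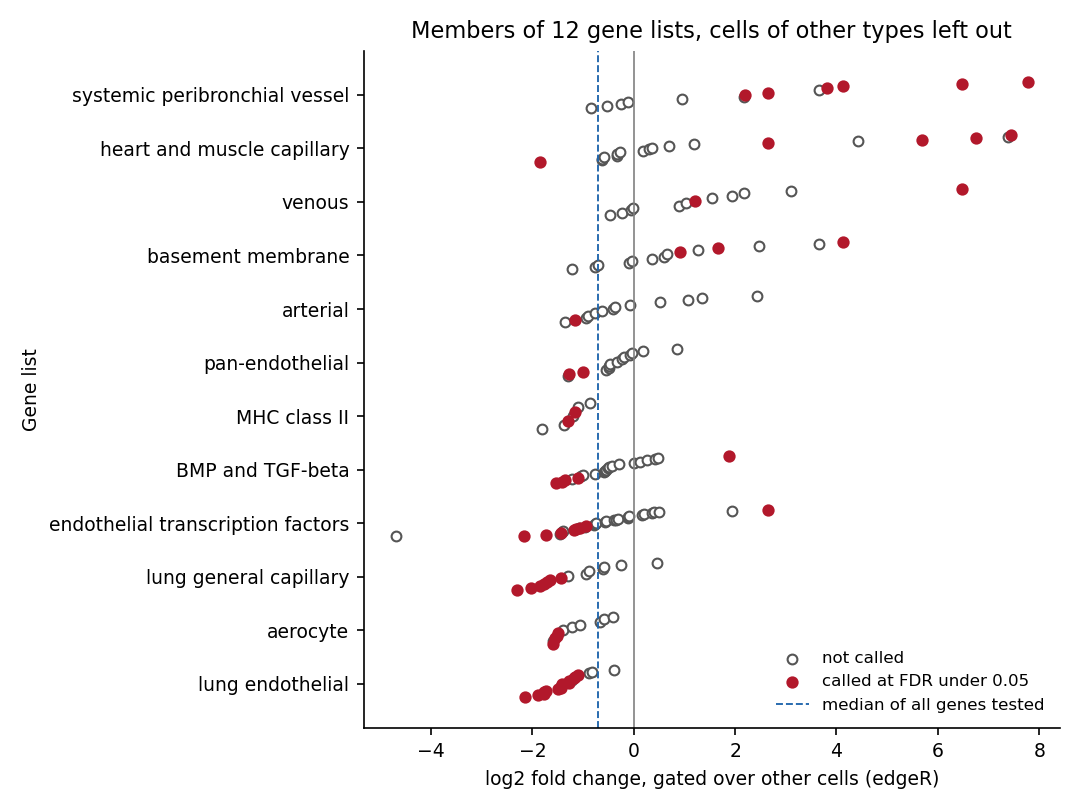
Each point is 1 tested gene of 12 lists, placed by its log2 fold change of gated over other cells (x axis, edgeR, cells of other types left out), filled where called at an adjusted p under 0.05; the dashed line is the median of all genes tested, −0.71. Called genes lie on the right in the systemic vessel list (6 of 13) and on the left in the lung endothelial list (13 of 18).

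Matrix and secreted genes were among the higher ones. Of 14 tested genes of the basement membrane, Col15a1, Sparc and Sparcl1 were higher and none lower (median 0.63). Sparcl1, a matricellular protein, stood at 128, 908, 586 and 1253 CPM in gated cells at d0, d15, d22 and d36, and at 144, 160, 109 and 209 in other cells (1.66 ± 0.32, SE; edgeR adjusted p = 6.19e-05), so d0 was the only day at which gated cells were not above the other cells. The call of Sparc was lost without d15, d22 or d36. Igfbp7, a secreted binding protein of the insulin-like growth factor axis and the only called gene of 10 tested on that list, stood at 3381, 6258, 6277 and 8541 CPM in gated cells and at 2569, 1920, 2919 and 2005 in other cells (1.04 ± 0.22, SE; edgeR adjusted p = 0.000336). Its groups did not overlap, and its call was lost without d22 or without d36. Lrg1, a glycoprotein that modulates signalling of the transforming growth factor beta family, stood at 351, 2706, 416 and 2275 CPM in gated cells and at 134, 238, 99.2 and 186 in other cells (2.38 ± 0.29, SE; edgeR adjusted p = 2.19e-13). Its call was lost when all cells with Ackr1 were left out. Mmrn2, an EC matrix glycoprotein, was higher at 421, 979, 248 and 706 CPM in gated cells, while the other cells had 119, 151, 114 and 99.3 (1.83 ± 0.32, SE; edgeR adjusted p = 5.17e-06).

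In the BMP and transforming growth factor beta list, 1 of 21 tested genes was higher and 4 were lower. The median of the list was −0.56, above the −0.71 of all genes. Ltbp4, which binds latent transforming growth factor beta in the matrix, was the higher one (1.88 ± 0.42, SE; edgeR adjusted p = 0.00150), and lost its call without the Ackr1 cells. The lower ones were the receptors Acvrl1 (−1.11) and Bmpr2 (−1.41), the inhibitor Smad6 (−1.53) and the target Id2 (−1.36), and all 4 lost their calls without d15 or without d36, Id2 also without d22. With DESeq2 over the 76 cells Ltbp4 was higher and none of the 21 was lower, and of the transcription factors below 2 were lower. Of 31 tested endothelial transcription factors, Ebf1 was higher and 7 were lower, among them Foxf1, Tbx3 (−1.44), Meis1 (−2.17), Foxp1 (−1.06), Gata2 (−1.14) and Epas1 (−1.18). Each lost its call when some single day was left out, Foxf1 without d15, Tbx3 without d0 or d15, Meis1 without d15 or d22, Foxp1 and Gata2 without d15 or d36, and Epas1 without d36. Of 7 tested class II genes of the major histocompatibility complex, Cd74 (−1.16) and H2-Ab1 (−1.29) were lower, and both lost their calls without d15, Cd74 also without d36; DESeq2 called none of the 7 over the 76 cells, where edgeR called 4.

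Few venous and arterial genes were called over the 68 cells. Of 12 tested venous genes, Ackr1 and Prss23 were higher (median 1.11, beside −0.71 for all genes), and 5 were higher over the 76 cells when scaled by totals only. The summed venous list was higher in the 76 gated cells at every day, with ratios of 3.02 (d0), 4.24 (d15), 1.70 (d22) and 3.24 (d36). Without cells of other types it stood at 673, 1505, 1886 and 2954 CPM in cells with 0, 1, 2 and 3 or more gate genes. Prss23, a serine protease, stood at 1206, 970, 445 and 742 CPM in gated cells and at 313, 301, 267 and 245 in other cells (1.21 ± 0.28, SE; edgeR adjusted p = 0.00323), a call lost without d0. Of 13 tested arterial genes, Gja4, a connexin of arterial EC, was lower (−1.16) and none was higher, and the Gja4 call was lost without d0 or d15. Over the 76 cells edgeR called 2 arterial genes higher, Mgp and Eln, and scaling by totals only or DESeq2 called 4, with Fbln5 and Fbln2 added. Of these Fbln5, a protein of elastic fibres, was also called higher in the 41 cells described below. Of 10 tested lymphatic genes, Lyve1, a hyaluronan receptor (−1.31), and the chemokine gene Ccl21a (−1.74) were called lower and none higher. The call of Lyve1 was lost without d36. Ccl21a stood at 5812, 8.90, 26.0 and 24.3 CPM in gated cells at the 4 days and at 431, 537, 266 and 71.3 in other cells. The pooled gated level was thus the higher one at d0. That pool includes 1 cell rich in lymphatic markers, given below, and only 12 of the 76 gated cells had Ccl21a, with 924 UMIs in all. Without the day as block the log2 fold change of Ccl21a over the 76 cells was 1.63, the opposite sign. Its call was lost without d15, d22 or d36. Tagln, a smooth muscle actin-binding protein, was the only called gene of 4 tested on the mural list (4.94 ± 0.54, SE; edgeR adjusted p = 2.26e-16). It lay in 7 gated cells, 5 of them with Ackr1, and its call was lost without the Ackr1 cells. Of the proliferation list, Stmn1 was lower (−2.32) and the other 16 tested genes were not called. Of the 12 genes with the most lowered ratios at all 4 days over the 76 cells, 10 were not called or not tested over the 68, among them the haemoglobins Hba-a1, Hba-a2 and Hbb-bs, the platelet gene Ppbp and the epithelial genes Sftpb, Sftpa1 and Ager. The haemoglobins, Ppbp and these epithelial genes are themselves markers by which cells were left out, so their lost calls follow in part from that choice. Of the 12, the 2 that stayed were Atp2a3, a calcium pump (−4.74), and Pde3a, a phosphodiesterase (−2.82). Over the 68 cells Atp2a3 lost its call without any 1 day, and Pde3a without d0, d15 or d36. Cyp1a1, an enzyme that oxidises foreign compounds, was not called (−0.95, edgeR adjusted p = 0.403). In gated cells it stood at 427 CPM at d0 and 168 at d22 with none at d15 and d36, while the other cells had 1207 at d0 and 35.2, 55.7 and 51.4 at the later days.

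**Figure D4:**
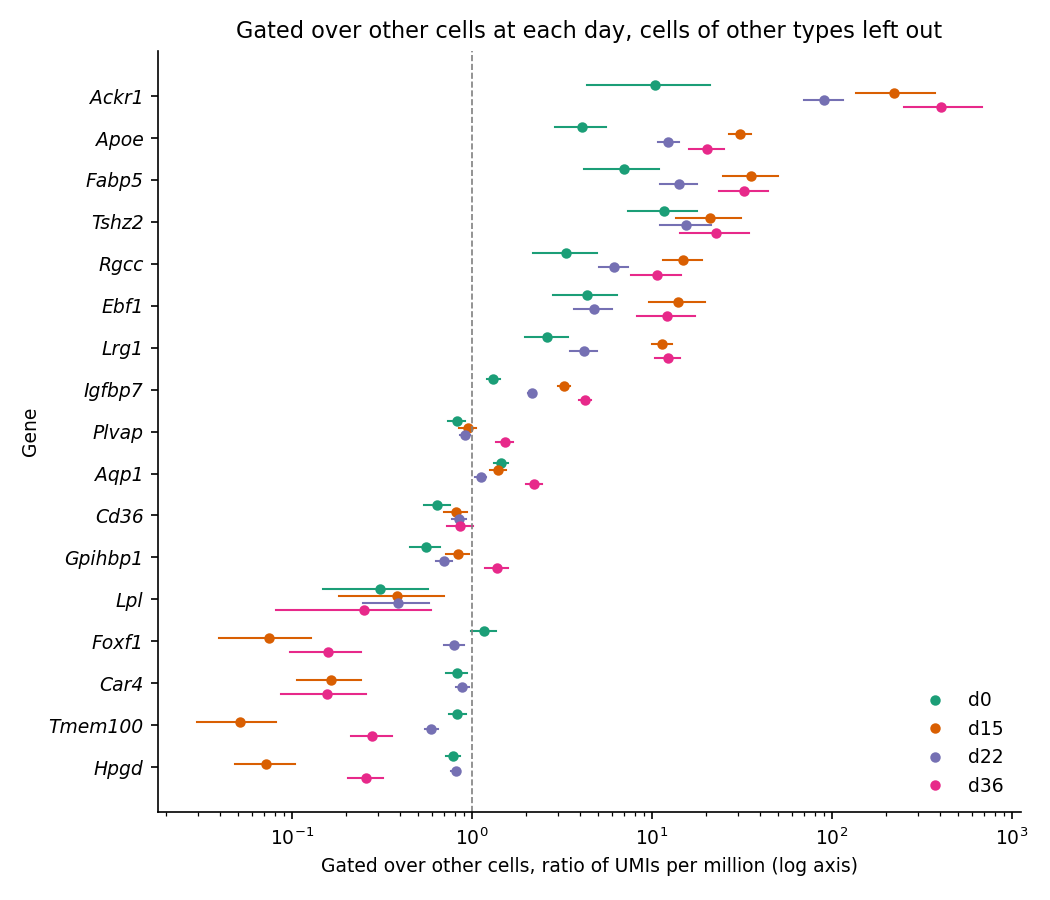
For 17 genes (y axis), points give the ratio of gated to other cells in CPM at each day (x axis, log scale; cells of other types left out; bars are exact binomial 95% intervals that take UMIs as independent; no value is drawn where gated cells had no UMI). Ackr1 lies above 1 at all days, Lpl below 1 at all days, and Foxf1, Tmem100 and Hpgd are lowest at d15.

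The gated cells varied widely among themselves. When cells were ordered by the number of gate genes with a UMI, the 8093 cells with 0, the 793 with 1, the 45 with 2 and the 23 with 3 or more had 23939, 21338, 19734 and 6414 CPM from the lung endothelial list. Tmem100 stood at 2723, 2264, 1893 and 358, Foxf1 at 1039, 892, 882 and 99.3, and Car4 at 1640, 1762, 1663 and 168 CPM in those classes. The drop thus lay between 2 gate genes and 3 or more. Apoe stood at 52.6, 158, 603 and 1857 CPM, Fabp5 at 15.4, 38.4, 185 and 579, Ackr1 at 2.52, 17.6, 135 and 1153, and Aqp7 ran from 0.816 in cells with 0 to 242 in cells with 3 or more. These 4 genes were higher in each class than in the one before it. The values are descriptions of pooled cells, with no test.

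**Figure D5:**
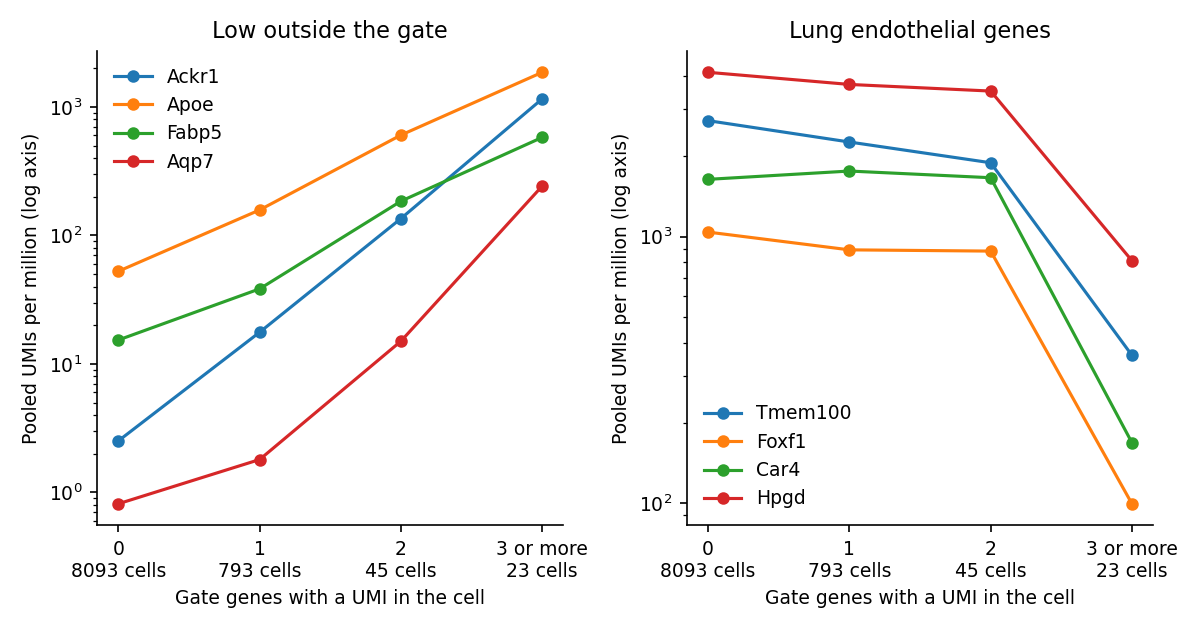
Pooled CPM (y axis, log scale) of 8 genes that were not part of the gate, in cells with 0, 1, 2 and 3 or more gate genes (x axis, with the number of cells), cells of other types left out. Apoe runs through 52.6, 158, 603 and 1857, and Tmem100 through 2723, 2264, 1893 and 358.

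The UMI depth of the gate genes split the 68 cells in a similar way. In the 41 cells with at least 2 gate genes at 3 or more UMIs, the median cell had 4584 CPM from the lung endothelial list. In the 27 other gated cells it had 26113, and in the 8886 cells outside the gate 24153. On that list the 27 cells were thus nearer to the cells outside the gate than to the 41. Apoe was detected in 32 of the 41 cells and in 3 of the 27, Rgcc in 22 and in 6, and Fabp5 in 18 and in 2. Hpgd was detected in 8 of the 41 and in 26 of the 27, and Tmem100 in 22 and in 27. The aerocyte list summed to 1045 CPM in the 41 cells, 9056 in the 27 and 6927 outside the gate, and the basement membrane list to 4879, 1216 and 1330. The 41 cells had a median of 7309 UMIs and the 27 a median of 11092, so the cells with the stronger gate genes were the shallower ones. By day, the 41 were 4 of 13 gated cells (d0), 14 of 15 (d15), 11 of 27 (d22) and 12 of 13 (d36). The 27 cells thus came mostly from d0 and d22, the days with the deeper cells. Depth and levels of both classes were not compared within days. Over the 41 cells alone, the same fit tested 10753 genes and called 351 (3.26%), 58 higher (0.539%) and 293 lower (2.72%), and 17 of the 18 lung endothelial genes were lower, with a median log2 fold change of −2.41 beside −1.24 for all genes tested.

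Within the 41 cells, Ackr1 was in 7, Aqp7 in 12, both in 0 and neither in 22. How many shared cells would be due if the genes fell independently was not worked out, and with these counts it would be few. The median depth was 9829 UMIs in the Ackr1 cells, 8017.5 in the Aqp7 cells and 6196 in those with neither. By day, the Ackr1 cells numbered 1, 1, 2 and 3 and the Aqp7 cells 0, 4, 5 and 3. Fabp4 was high in both kinds, at 13398 CPM in the Ackr1 cells and 14928 in the Aqp7 cells, while the 22 cells with neither had 3839. Rgcc was detected in 1 of the 7 Ackr1 cells and in 10 of the 12 Aqp7 cells, and Gpihbp1 in 3 and in 9. Lrg1 was detected in 7 of the 7 Ackr1 cells and in 4 of the 12 Aqp7 cells, and Tagln in 5 and in 1. Cldn5 stood at 155 CPM in the Ackr1 cells and at 2253 in the Aqp7 cells. Igfbp3 was lowest in the Ackr1 cells (95.4 CPM), next in the Aqp7 cells (233) and highest in the cells with neither (1794). This split was chosen after the values had been seen, rests on 7 and 12 cells, and was not tested.

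Set against the marker lists, the 76 gated cells were mixed. By the edgeR fit the 41 cells were higher in 5 of 13 genes of the airway systemic vessels and lower in 17 of 18 lung endothelial genes. In the same fit 5 of 18 heart and muscle capillary genes were higher (Rgcc, Timp4, Aqp7, Hspb1 and Kcna5) and 3 were lower (Cd36, Lpl and Gpihbp1), and of 14 pan-endothelial genes Emcn was higher and 5 were lower (Cdh5, Cldn5, Egfl7, Eng and Icam2). The 27 other gated cells carried lung endothelial genes at 24201 CPM beside 23624 outside the gate. They had no UMI of Ackr1 or Aqp7, but of all 9036 cells only 42 had Ackr1 and 44 Aqp7. The absence of both from 27 cells thus says little. Among the 27 was 1 cell of d0 with 942 of its 11009 UMIs from lymphatic markers. The 8 fibroblast-led cells had lower levels of the pan-endothelial markers than any of the 68.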

How the data were processed

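Values are UMI counts for each gene in each cell, as the authors deposited them; all are whole, and their sums differ between cells. Cell Ranger 2.1.1 and build mm10 are named in the submitters' processing notes, with no cell filter stated there. The table has 28692 genes, 10850 of them without a UMI. No doublet caller was run, so doublets remain. Cells with at least 2% of UMIs from markers of other types, or under 300 genes, were left out in the second fit (82 cells). Sums per day entered edgeR 4.0.16 (R 4.3.3; TMM scaling, filterByExpr, day as block); DESeq2 1.42.0 was an alternative. The test was checked on simulated data. Ratios and shares have exact 95% intervals that cover counting error only, and a count of 0 has a floor of 3 UMIs. Of the list genes 1 was not found and 5 were found under an older symbol. Named were the gate genes, the 16 highest and 12 lowest called ratios on 1 side at all 4 days with at least 20 UMIs found or due, up to 4 called and the 2 highest-level genes of each list, and a set followed at every day; Ebf3, Vwa1, Kcna5, Id2, Wfdc1, Tbx3, Foxp1, Gata2, H2-Ab1, Pdgfra, Hspb1, Emcn, Cdh5, Fbln5 and Fbln2 are outside that rule and were chosen after their values were seen. Not every gene that the rule names is reported here. The members and lists were chosen with earlier results of these data known.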

Additional observations from a re-analysis of the deposited data

Results flagged for a closer look

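The summed lymphatic list lay on opposite sides at different days over the 76 gated cells. Its ratio of gated to other cells was 4.58 (d0), 0.324 (d15), 0.388 (d22) and 0.183 (d36). The difference between days was not tested, with 1 pooled sample a day. At d0, 1 gated cell held 942 lymphatic-marker UMIs of its 11009 UMIs.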

How the results depend on the processing

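The main fit of the 76 cells called 123 genes higher; the total of higher calls under other settings was 219 with DESeq2 (113 of them among the 123), 28 with a gate of at least 3 genes, 64 without Fabp4 in the gate, 54 without Igfbp3, 44 without Meox2, 73 with thinned cells, 49 without cells of other types, 216 with counts divided by 4 (112 among the 123), 58 with 3 UMIs per gate gene and no other types, and 22 without other types and Ackr1 cells. The main fit called 190 genes lower; the total of lower calls was 114 with DESeq2 size factors, 110 with library totals, 50 with DESeq2, 288 without Fabp4, 309 without Igfbp3, 113 without Meox2, 382 with 3 UMIs per gate gene (173 among the 190), 293 with that and no other types, and 77 without other types and Ackr1 cells. Leaving out 1 day gave 27 to 109 higher and 39 to 182 lower genes. The cause was not tested.

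Gated and other cells were paired by day, the block of the main fit; pairing by library was not possible because the cell names carry no library number. With no replicate block 146 genes were higher and 60 lower.

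The gate share at d0 was 0.112% with 3 genes and with thinning, 0.262% without Fabp4 and without Igfbp3, 0.300% with 3 UMIs and 0.151% with 3 UMIs and no other types. At d15 it was 0.398% with 3 genes and without Fabp4. At d22 it was 0.217% with 3 genes, 0.279% without Fabp4 and with thinning, 0.372% without Igfbp3, 0.341% with 3 UMIs and 0.342% with that and no other types. Over all days it was 0.277%, 0.376% without Fabp4, 0.487% without Igfbp3, 0.354% with thinning, 0.509% with 3 UMIs and 0.458% with that and no other types.

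These log2 fold changes changed sign. Without other types Efemp1 was −0.36, Mgp −1.35, Gsn −1.43 and Tcf21 −0.87; without Ackr1 cells as well Serping1 was −1.20, Efemp1 −0.19, Mgp −1.28, Gsn −1.95 and Tcf21 −0.71; with 3 UMIs and no other types Mgp was −0.84, Gsn −3.34 and Meox1 −0.33. Leaving out 1 day, with and without other types, gave −2.44 to 2.77 for Mgp, −1.75 to 4.60 for Gsn, −0.66 to 5.05 for Tcf21, −0.11 to 4.73 for Serping1 and −0.32 to 0.57 for Meox1. With a gate of 3 genes Aqp1 was −0.29, Mgp −0.99 and Meox1 −0.78; without Fabp4 Aqp1 was −0.32 and Meox1 −0.96. Meox1 was −0.31 without Meox2, and −0.50 with 3 UMIs, and Aqp1 −0.055 with thinned cells. Ccl21a was 1.63 with no replicate block and 0.22 with counts divided by 4. Few gated cells per day (13 to 27 without other types) limit the precision.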
